A study of Mus musculus with 2 samples.

Results

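Suffix models are transcript models whose chain of splice junctions equals the 3' tail of a longer transcript of the same gene, so that 1 or more exons are missing from the 5' side. They were taken by their class alone: models that the authors' tables put in the incomplete-match class with the suffix subtype, spike-in RNAs left out. Of 72416 mouse models in replicate 1, 14261 were suffix models (19.7%), and of 88614 in replicate 2, 13753 (15.5%). The working label called these models incomplete at the 3' end, and the exon positions went against it. Among the 12650 and 12420 suffix models with an annotated parent (an annotated transcript of the gene that ends with the same junctions), 78.6% and 78.8% ended within 50 bases of the 3' end of a parent, and those models held 88.5% and 93.7% of the reads. The recorded end was exactly a parent's end in 66.4% and 67.4% of models with a parent. Whether recorded ends are the true 3' ends of molecules was not tested. What was missing lay at the 5' side in every model with a parent, by the construction of the class.

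The RNA came from the gastrocnemius, a calf muscle, of male B6CASTF1/J mice, an F1 hybrid strain, aged 36 days, with 2 µg of RNA per library and no treatment or genetic change named. There was 1 group of 2 libraries, described as biological replicates with different animal numbers and a shared donor record, so the spread between them may be partly technical and no test between groups could be made. Reads in annotated genes numbered 1036455 in replicate 1 and 1374068 in replicate 2, the totals behind CPM (reads per 1000000 gene reads), and a count of 0 allowed up to 2.89 and 2.18 CPM. Intervals are Wilson 95% intervals unless named otherwise, and they cover counting error only. The 7 skeletal muscle markers (Ckm, Acta1, Myh4, Atp2a1, Mylpf, Tnnt3 and Pvalb) summed to 296358 and 210687 CPM, against 0.965 and 0 CPM for 3 heart markers and 217 and 288 CPM for the red cell genes Hba-a1 and Hbb-bs. Mbp, a myelin gene of nerve, had 489 and 65.5 CPM and so was higher in replicate 1, and its part in the results was not tested. The fat genes Adipoq and Fabp4 summed to 82.0 and 263 CPM.

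In long-read sequencing of cDNA made from the poly(A) tail, reverse transcription starts at the 3' end of a molecule. A molecule that is broken, or whose reverse transcription stops early, is then recorded as a 3' piece of the transcript. A promoter inside a gene gives a molecule of the same shape, with a real 5' end at an internal exon. The class itself does not separate these 2 origins. Positions are on mm10, and exons are numbered as in the GENCODE M21 transcript named.

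The sequences at the recorded start are printed for 6 models that were in both libraries: 5 from the 10 most-read models, and Mybpc2 as a start off any exon boundary. Whether a recorded start is the true 5' end of a molecule was not tested. Each line holds 60 bases of the annotated mRNA, 5' to 3': in lower case the last 30 bases before the start, which the model lacks, and in capitals the first 30 bases it keeps. All lie in coding sequence.
Myh4 (chromosome 11, 67259083, exon 36 of 38 of Myh4-202): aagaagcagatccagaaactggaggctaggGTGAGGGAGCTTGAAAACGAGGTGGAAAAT
Hrc (chromosome 7, 45337887, exon 3 of 6 of Hrc-201): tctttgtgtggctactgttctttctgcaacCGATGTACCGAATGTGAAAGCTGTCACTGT
Myl1 (chromosome 1, 66926622, exon 4 of 7 of Myl1-201): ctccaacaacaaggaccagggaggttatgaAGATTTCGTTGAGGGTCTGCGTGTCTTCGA
Ndufs7 (chromosome 10, 80255924, exon 7 of 8 of Ndufs7-201): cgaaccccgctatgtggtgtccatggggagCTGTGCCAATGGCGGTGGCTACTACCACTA
Acta1 (chromosome 8, 123893470, exon 3 of 7 of Acta1-201): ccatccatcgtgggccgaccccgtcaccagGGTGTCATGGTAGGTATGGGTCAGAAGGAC
Mybpc2 (chromosome 7, 44503754, exon 27 of 28 of Mybpc2-201): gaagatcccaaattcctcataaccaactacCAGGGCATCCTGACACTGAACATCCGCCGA
In Myh4, Hrc, Ndufs7 and Acta1 the change of case falls on an exon junction. In Myl1 it falls 85 bases inside exon 4 of Myl1-201, at a base that is the last base of an annotated exon. In Mybpc2 it falls 69 bases inside exon 27, on no annotated boundary.

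Suffix models held 74756 reads in replicate 1 and 145847 in replicate 2. In annotated genes they took 7.21% of reads in replicate 1 (7.16 to 7.26) and 10.6% in replicate 2 (10.5 to 10.7), a mean of 8.91% ± 2.40 (SD, n = 2). Within the incomplete-match class their share of reads was 65.2% and 65.8%. Prefix models, which lack 3' exons, took 1.56% and 0.320% of gene reads. Suffix models were spread over 5321 and 5351 annotated genes, and most were seen once: 66.0% and 62.6% had 1 read, against 60.5% and 58.0% of all mouse models. Their reads were concentrated in a few structures. The 10 most-read suffix models held 18.01% of suffix reads in replicate 1 and 38.6% in replicate 2, and the 100 most-read held 47.2% and 65.5%.

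Across the libraries, 6018 chains were present in both tables and classed as suffix in at least 1, of which 5799 were suffix in both. They made up 41.5% and 42.9% of the suffix models of each library, a mean of 42.2% ± 1.02 (SD, n = 2), but 85.9% and 92.5% of the suffix reads. So the models that recurred held most of the reads, and the models seen in 1 library only held few. A model with many reads is more readily found in both libraries, so this split cannot be read apart from depth.

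Start points recurred to the base in most of these chains. The recorded start was the same base in 4902 of 6018 (81.5%, 80.5 to 82.4), within 10 bases in 84.6% and within 50 bases in 87.5% (86.7 to 88.3). For comparison, starts within 50 bases were found in 90.0% of 422 prefix chains and 91.5% of 3510 new combinations of annotated splice sites in both libraries, where the same base was recorded in 72.7% and 63.6%. The agreement to the base has to be read with where the starts lie. In replicate 1, 20.9% of suffix models started on an annotated transcript start and a further 66.4% on the first base of an annotated exon, and replicate 2 had 21.2% and 66.5%. Another 6.94% and 6.85% started on the last base of an annotated exon, and 5.83% and 5.38% on no annotated boundary of the strand. Most recorded starts therefore sat on annotated boundaries, and their resolution is that of the exon. Among chains that were suffix in both tables and had both starts on an annotated boundary, 89.5% of 5243 shared the base. Among the 132 with both starts off every boundary, 38.6% did (30.8 to 47.2), and 56.1% were within 50 bases (47.5 to 64.2).

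**Figure D1:**
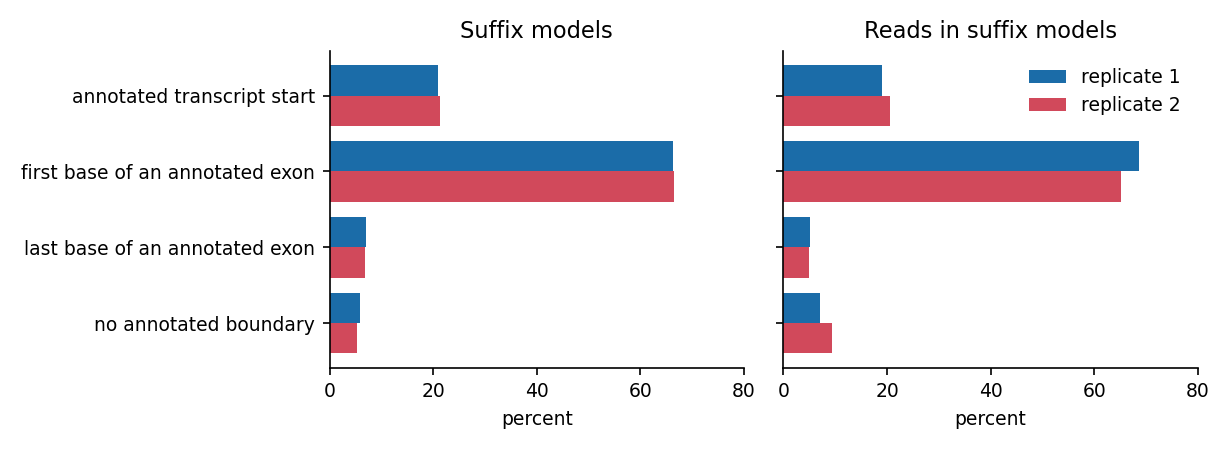
Horizontal bars give the percent of suffix models (left) and of their reads (right) by where the recorded start lies, for replicate 1 (blue) and replicate 2 (red). The first base of an annotated exon takes 66.4% and 66.5% of models and 68.7% and 65.1% of reads, and no annotated boundary takes 7.12% and 9.29% of reads.

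Starts at an annotated transcript start are those where the annotation itself places a 5' end inside the longer transcript. Of the chains in both libraries, 22.9% and 22.7% started within 50 bases of an annotated start of their gene, a mean of 22.8% ± 0.0962 (SD, n = 2). The leading example was Atp5b, which encodes the beta subunit of the mitochondrial ATP synthase. Its 2-exon model of 372 bases (chromosome 10, 128089041 to 128090272) had 1540 and 7671 reads and began on an annotated start, with 1 exon fewer than the 3-exon Atp5b-206 and 8 fewer than the 10-exon Atp5b-201. Atp5f1, another ATP synthase subunit gene, had 716 and 1443 reads in a 7-exon model that began on an annotated start and lacked 1 of 8 exons of Atp5f1-201. Slow skeletal troponin T, Tnnt1, had 210 and 1579 reads in a 3-exon model of that kind (chromosome 7, start 4508025), which lacked 1 exon of Tnnt1-202 and 11 of Tnnt1-203. Of 1201 chains that were suffix in both tables and began on an annotated start in both, 951 were in genes of the RefSeq promoter table. RefSeq placed a start within 50 bases of 96 of them (10.1%, 8.34 to 12.2). Of 2686 chains that began on the first base of another annotated exon, 1 lay that near. The groups were set by GENCODE starts, so the contrast compares GENCODE with RefSeq. Whether molecules begin at these starts was not tested.

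Starts on no annotated boundary that recurred within 10 bases numbered 59, and 1 of them stood above the rest in reads. Pfkm encodes the muscle form of phosphofructokinase, the committed step of glycolysis. Its 22-exon model had 1473 and 1054 reads, that is 69.3% and 60.4% of all Pfkm reads, and started at base 98112034 of chromosome 15 in both libraries. That base lies 120 bases upstream of the second exon of the 23-exon Pfkm-201, in its first intron, and 3568 bases from the nearest GENCODE M21 start. RefSeq (GRCm38.p6) places a Pfkm start 26 bases downstream of it. The window around that RefSeq start, chr15:98111810-98112109 on the plus strand, is printed with the first 30 bases after the recorded start in capitals.
Pfkm: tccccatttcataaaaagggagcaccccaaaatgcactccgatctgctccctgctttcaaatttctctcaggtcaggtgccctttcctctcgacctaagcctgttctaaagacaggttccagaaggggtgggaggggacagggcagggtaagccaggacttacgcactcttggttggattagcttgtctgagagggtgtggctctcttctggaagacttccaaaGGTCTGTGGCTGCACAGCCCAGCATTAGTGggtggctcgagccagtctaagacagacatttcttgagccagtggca
Of the 47 recurring starts of this kind in genes with a RefSeq entry, Pfkm was the only 1 within 50 bases of a RefSeq start. The model started before the annotated start codon, so the annotated coding region was kept whole.

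The other recurring starts off the boundaries had fewer reads. Pygm, the muscle glycogen phosphorylase, had a 19-exon model with 126 and 71 reads that started at 6385118 of chromosome 19 in both libraries, 567 bases upstream of the second exon of the 20-exon Pygm-201. Mybpc2, the fast form of myosin-binding protein C, had the 2-exon model shown above with 47 and 204 reads. Tropomyosin Tpm1 had 77 and 145 reads in a 7-exon model that started 2 bases inside an exon (chromosome 9, 67033991), and the pyruvate kinase gene Pkm had 35 and 102 reads in a 3-exon model 4 bases inside one (chromosome 9, 59675033). Of the 59, 33 started inside an exon of the parent, 19 of these within 10 bases of its start, 9 started upstream of the exon and 17 had no annotated parent.

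Most suffix models had lost several exons. Against the annotated parent with the fewest exons, the median loss over models was 5 exons in replicate 1 and 4 in replicate 2, a mean of 4.5 ± 0.707 (SD, n = 2), and the median over reads was 3 in both. Against the longest parent the median was 6 exons over models in each library. A single exon was missing in 20.9% and 21.3% of models, with 26.1% and 25.1% of reads, and over 10 exons were missing in 23.5% and 22.0% of models, with 22.7% and 22.1% of reads. The median model kept 7 and 6 exons and 66.4% and 59.2% of the parent's length. Over reads the libraries were further apart, with 6 and 3 exons kept and 63.9% and 45.4% of the length. Without Myh4 the median over reads was 5 and 4 exons kept.

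**Figure D2:**
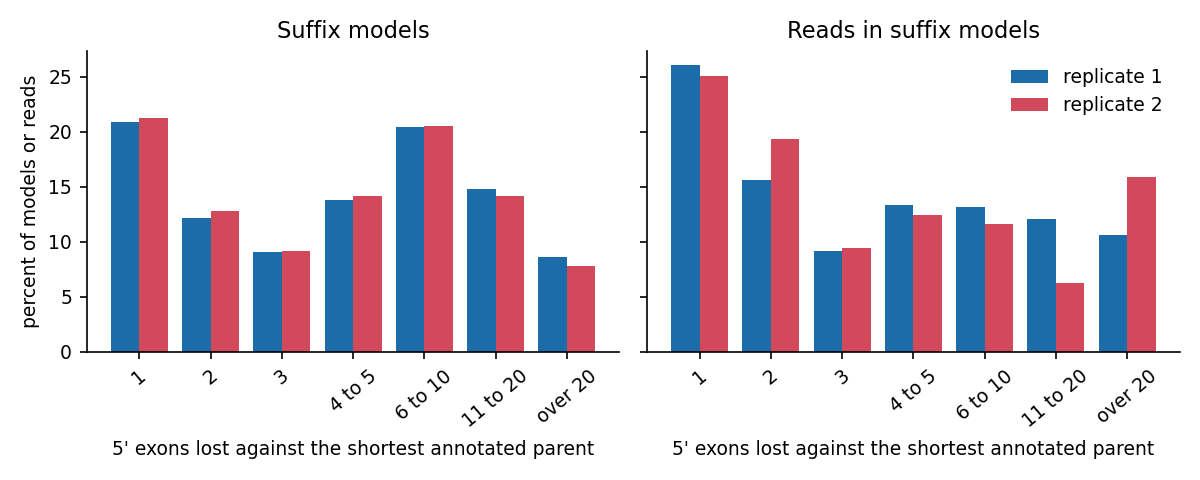
Bars give the percent of suffix models (left) and of their reads (right) by the number of 5' exons lost against the annotated parent with the fewest exons, replicate 1 in blue and replicate 2 in red. The models fall alike in both libraries, while reads that lost over 20 exons take 10.6% in replicate 1 and 15.9% in replicate 2. That class holds the 3-exon Myh4 model, which lost 35 exons and had 831 and 14332 reads, so its order rests largely on 1 model.

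The start lay within the coding region of the parent in 87.5% and 87.9% of models with a coding parent, so these lack the annotated start codon. A further 3.02% and 3.64% of models, with 0.969% and 0.800% of reads, started after the stop codon. The remaining 9.47% and 8.44% started before the start codon, with 14.3% and 8.61% of reads, and 487 of these were in both libraries. They had mostly lost 1 exon (90.8% and 90.7% of them). Examples beside Pfkm and Atp5f1 were the 6-exon Acta1 model with 891 and 1024 reads, the 7-exon Ckm model with 376 and 700 reads, and Psmc2, a proteasome ATPase gene, whose 12-exon model with 98 and 108 reads lacked the first of 13 exons. These positions are those of recorded starts. On an exon boundary, as in the Ckm and Psmc2 models, the resolution is that of the exon. Whether the molecules of such models held the start codon was not tested.

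The longest losses were in the largest muscle genes. Ttn encodes titin, the giant spring of the sarcomere, and its 4-exon model (chromosome 2, start 76707388) had 22 and 30 reads and lacked 188 of the 192 exons of Ttn-201. A 6-exon Ttn model lacked 186 exons and had 48 and 42 reads, with starts 2135 bases apart. Ryr1, the calcium release channel of the sarcoplasmic reticulum, had 3 of the 5 models that lost the most exons among those with at least 50 reads in sum. They lacked 103, 94 and 91 of 106 exons of Ryr1-202, with 25 and 70 reads, 58 and 65 reads, and 162 and 95 reads. Each of these 3 models started on the first base of an annotated exon, the same in both libraries, where the resolution is that of the exon. The most-read Ryr1 chain, with 240 and 153 reads, lacked 90 exons of Ryr1-202 and had starts 639 bases apart.

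Genes differed widely in the share of their reads in suffix models. Of the annotated genes, 981 had 100 or more reads in both libraries, and their median share was 2.26% in replicate 1 and 2.93% in replicate 2. The upper quartile was 6.06% and 8%, and 188 and 159 genes had no suffix read. In 19 genes the share was at least 50% in both libraries, among them Psmc2, Hrc, Atp5f1, Tnnt1, Ryr1, Pfkm, Tecr, Col1a2, Ssbp1, Cdh13, 2310065F04Rik, Pink1, Ndufs7, Myh2, Ndufa4, Nrap and Myh4. At the top the libraries differed little in some genes and more in others. Hrc, the histidine-rich calcium-binding protein of the sarcoplasmic reticulum, had 95.8% and 97.0%, and Psmc2 had 97.1% and 96.6%. Ryr1 had 91.0% and 88.0%, and Pfkm 78.3% and 79.2%. Further apart among the 10 genes with the highest mean share were Cdh13, with 88.1% and 61.0%, and Col1a2, with 79.9% and 67.0%.

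**Figure D3:**
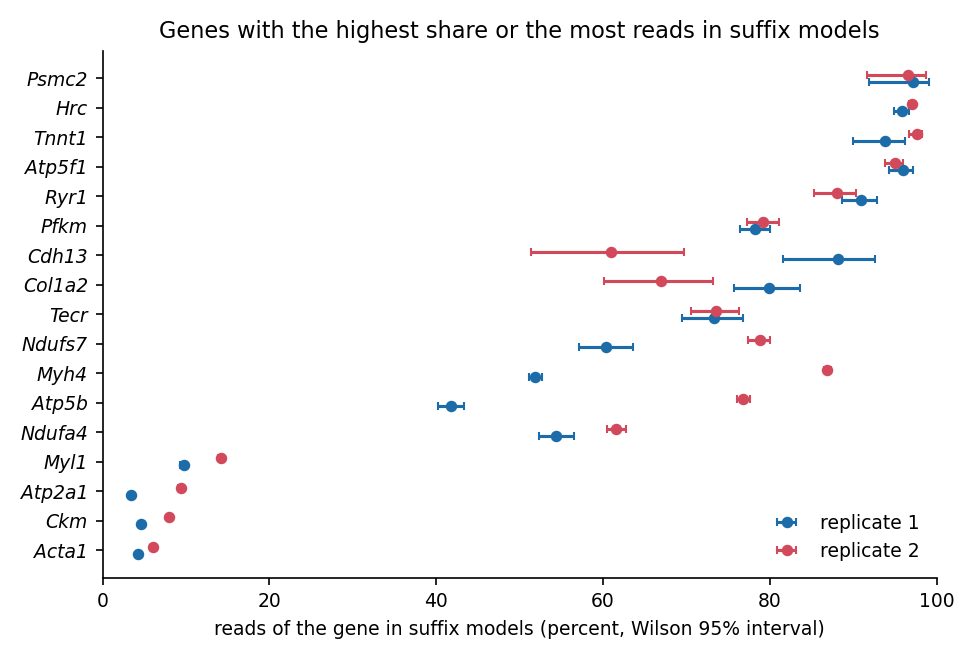
Points give the percent of a gene's reads in suffix models with Wilson 95% intervals, replicate 1 in blue and replicate 2 in red, for 17 of the genes with the highest mean share or the most suffix reads. Hrc sits at 95.8% and 97.0%, Myh4 at 51.9% and 86.9%, and Acta1, with many suffix reads in a highly expressed gene, at 4.29% and 6.01%.

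Behind these shares stood 2 patterns. In some genes 1 model held nearly all suffix reads. The 4-exon Hrc model (chromosome 7, start 45337887) had 1858 and 10666 reads, 96.0% and 95.7% of the gene's suffix reads, and lacked the first 2 of 6 exons while keeping 10.6% and 10.04% of the length of Hrc-201. Ndufa4 had 1192 and 4510 reads in 1 model of 2 exons (chromosome 6, start 11905262), 99.5% of its suffix reads in each library. Ndufs7, which like Ndufa4 is a gene of the respiratory chain, had 507 and 2857 reads in a 2-exon model that lacked 6 of 8 exons. Tecr, an enzyme of very long chain fatty acid synthesis, had 324 and 469 reads in a 12-exon model that lacked the first of 13 exons.

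In other genes the suffix reads were spread over many starts. Col1a2, a chain of type I collagen, had 48 and 38 suffix models, and the most-read model of each library held 6.90% and 15.2% of its suffix reads. The chain with the most reads in sum had 14 and 20. Ryr1 had 48 and 27 models and the type 2A myosin gene Myh2 had 37 and 35. Against the 39-exon Myh4-201, a chain that lost at least 1 exon can begin at 37 exons, and all 37 had suffix reads in both libraries. Atp2a1, the fast calcium pump, had reads at 21 of 21 such exons in each library. Its leading first exon was exon 8 in replicate 1 with 15.9% of suffix reads and exon 14 in replicate 2 with 12.0%.

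Myh4, the type 2B myosin heavy chain, had the most suffix reads of any gene, 7567 and 19739, and its profile differed between the libraries. In replicate 1, reads by first exon kept ranged from 15 at exon 5 to 832 at exon 37, which took 11.1%. In replicate 2 exon 37 took 14387 reads, 72.95%. The next exons there were exon 33 with 800 reads, exon 34 with 489 and exon 36 with 460. From exon 2 to exon 27, every exon had more reads in replicate 1 than in replicate 2. From exon 33 to exon 38 every exon had more in replicate 2. These are raw reads, and replicate 2 had more gene reads in total. The median suffix read began at exon 22 in replicate 1 and exon 37 in replicate 2. This profile holds 7514 and 19721 reads. Among the suffix reads left out of it, 34 and 10 kept exon 1 and lie in models of 39 exons with no annotated parent.

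**Figure D4:**
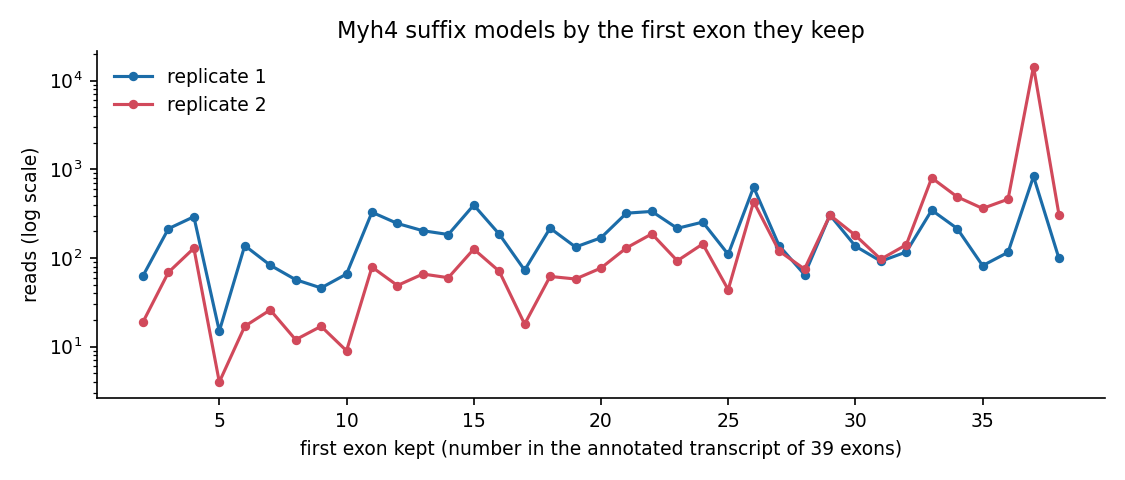
Points joined by lines give reads (log scale) in Myh4 suffix models by the first exon they keep, numbered in the annotated transcript of 39 exons, replicate 1 in blue and replicate 2 in red. Exon 37 stands at 832 and 14387 reads, and replicate 1 lies above replicate 2 at every exon from 2 to 27.

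Ckm and Acta1, among the most abundant muscle mRNAs, had many suffix reads, and their shares, under 10% in both libraries, were above the median gene. Creatine kinase Ckm had 3603 of 77131 reads in suffix models in replicate 1 (4.67%) and 7227 of 90410 in replicate 2 (7.99%). Its leading chain kept the last 2 exons with 2245 and 5020 reads. The recorded start of that chain was the exon's first base in replicate 1 (chromosome 7, 19420107) and 514 bases upstream, in the intron, in replicate 2. Skeletal actin Acta1 had 3458 of 80662 reads (4.29%) and 4973 of 82734 (6.01%), led by the 5-exon chain shown above with 1246 and 1473 reads. Myl1, a fast myosin light chain gene, had 9.73% and 14.2%, led by the 4-exon chain with 1234 and 4339 reads.

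By function, median shares were highest for the heavy structural genes. Among 5 measured thick filament genes the median was 37.0% and 61.9%, with the 3 myosin heavy chains at 51.9% and 86.9% (Myh4), 37.0% and 61.9% (Myh1) and 60.04% and 63.6% (Myh2), and the light chain Mylpf at 2.66% and 3.38%. Among 11 giant and cytoskeletal genes it was 30.8% and 25.1%, with Ryr1 at 91.0% and 88.0%. Among 6 matrix genes it was 17.8% and 21.6%. The medians were 8.88% and 12.0% for 10 thin filament genes and 6.05% and 10.6% for 15 genes of glycolysis and glycogen. They were 3.51% and 8.83% for 11 calcium handling genes, 5.46% and 4.44% for 12 Z-disc genes and 2.73% and 4.22% for 14 nuclear genes of oxidative phosphorylation. The other lists had 3.61% and 3.59% (9 cytosolic ribosome genes), 6.13% and 11.5% (8 fatty acid genes) and 6.96% and 17.96% (7 elongation and chaperone genes). All of these stood above the 2.26% and 2.93% of all genes tested, and the lists hold strongly expressed genes. Within a list the members were far apart: in calcium handling, the calcium store protein gene Casq1 had 1.63% and 4.03% and Hrc 95.8% and 97.0%, and in the Z-disc list Tcap, with 4296 and 9707 reads, had no suffix read in either library.

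Genes whose longest annotated transcript with reads was short had the lowest shares. This length can be far below that of the gene's longest annotated transcript. It was 681 bases for Atp2a1 and 502 for Col1a2, against 3477 and 5348 bases. The median share was 0.601% and 0.957% in 197 genes whose longest annotated transcript with reads was up to 1000 bases. In 221 genes over 3000 bases it was 3.98% and 3.94%. The difference was 3.38 and 2.99 percentage points, a mean of 3.18 ± 0.276 (SD, n = 2). The steps between were not even. The medians were 1.95% and 2.69% at 1000 to 2000 bases, 2.93% and 3.99% at 2000 to 3000, 3.13% and 3.64% at 3000 to 4000, and 3.49% and 3.35% at 4000 to 5000. In 41 genes of 5000 to 7000 bases they were 9.24% and 7.34%, and in 20 longer genes 5.68% and 4.60%. Replicate 1 thus increased up to 7000 bases, while replicate 2 was lower at 3000 to 5000 than at 2000 to 3000 bases. By reads, genes of 5000 to 7000 bases stood out with 28.1% and 45.6%, and without Myh4 this became 17.5% and 13.4%. The 19 tested genes with no annotated model with reads, Ryr1 and Tnnt1 among them, had no length by this measure and were left out.

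Between the libraries, a gene's share was counted as different at 20 percentage points or more with intervals that did not overlap. Of 981 genes, 15 were higher in replicate 2 (1.53%) and 11 in replicate 1 (1.12%). The largest differences with the higher share in replicate 2 were in Atp5b (41.8% and 76.8%), Myh4 (51.9% and 86.9%), the alpha-actinin gene Actn2 (26.6% and 60.6%), Hnrnpa2b1, which encodes an RNA-binding protein (42.7% and 71.8%), and Mybpc2 (20.5% and 48.7%). The largest with the higher share in replicate 1 were in Pfkfb4, a regulator of glycolysis (44.2% and 9.94%), Trdn (39.8% and 8.83%), Cmya5 (72.9% and 43.0%), Map4, a microtubule-associated protein gene (36.9% and 7.34%) and the cadherin gene Cdh13 (88.1% and 61.0%). By list, replicate 2 was higher by this rule in 2 of 5 thick filament genes (Myh4 and Myh1), 1 of 11 giant and cytoskeletal (Mybpc2), 1 of 12 Z-disc (Actn2), 1 of 15 glycolysis and glycogen (Pgk1) and 1 of 14 oxidative phosphorylation genes (Atp5b). Replicate 1 was higher in 2 giant and cytoskeletal genes (Flnc and Myom1), 1 of calcium handling (Trdn) and 1 of the Z-disc (Synpo2). In sign alone, 580 genes had the higher share in replicate 2 and 271 in replicate 1.

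For Trdn, the triadin of the calcium release complex, the order of the libraries depended on the class given to 1 chain. Its leading chain of 5 exons (chromosome 10, start 33183954) had 411 reads in replicate 1 and 1930 in replicate 2, and the tables class it as suffix in replicate 1 and as both suffix and prefix in replicate 2. Counting each chain that was suffix in either table as suffix in both gave Trdn 40.8% and 69.9%, the opposite order. Synpo2, which had 22.4% and 0%, had 22.4% and 19.1% by that count, since its chain of 68 and 49 reads was classed as genomic in replicate 2.

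Suffix models of both libraries were also compared by their levels. Of 1555 with at least 10 reads in sum, 396 (25.5%) were at least 2-fold higher in CPM in replicate 2, against 9.95% of the 9158 multi-exon models of all classes, and 326 (20.96%) were at least 2-fold higher in replicate 1, against 31.2%. The median log2 ratio of replicate 2 over replicate 1 was 0.14 for suffix models and -0.41 for all multi-exon models. The scale shifts these splits: with TMM library sizes 32.9% and 16.7% of suffix models were higher in replicate 2 and replicate 1, against 15.2% and 23.1% of all, and the median over all models moved to -0.12. With DESeq2 size factors, which came out at 1 for each library, the suffix values were 37.6% and 14.3% against 18.4% and 20.1%. The Myh4 model had 802 and 10430 CPM, a ratio of 13.0 (exact binomial 95% interval 12.1 to 14.0), the Hrc model 4.33 (4.12 to 4.55) and the Ndufs7 model 4.25 (3.87 to 4.68). The 5-exon Acta1 model, at 1202 and 1072 CPM, had a ratio of 0.892 (0.826 to 0.962), and Pfkm had 0.540 (0.498 to 0.585).

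Model length moved with this ratio in suffix and annotated models alike. Suffix models up to 500 bases had a median log2 ratio of 1.21 and annotated models of that length 0.86. At 500 to 1000 bases the medians were 0.94 and 0.54, at 1000 to 2000 bases 0.10 and -0.18, and over 2000 bases -1.25 and -1.06. The median suffix read belonged to a model of 1477 bases in replicate 1 and 578 bases in replicate 2, and without Myh4 to one of 1386 and 671 bases. The part of RNA quality or of library preparation in this difference was not tested, and the labels give no measure of either.

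**Figure D5:**
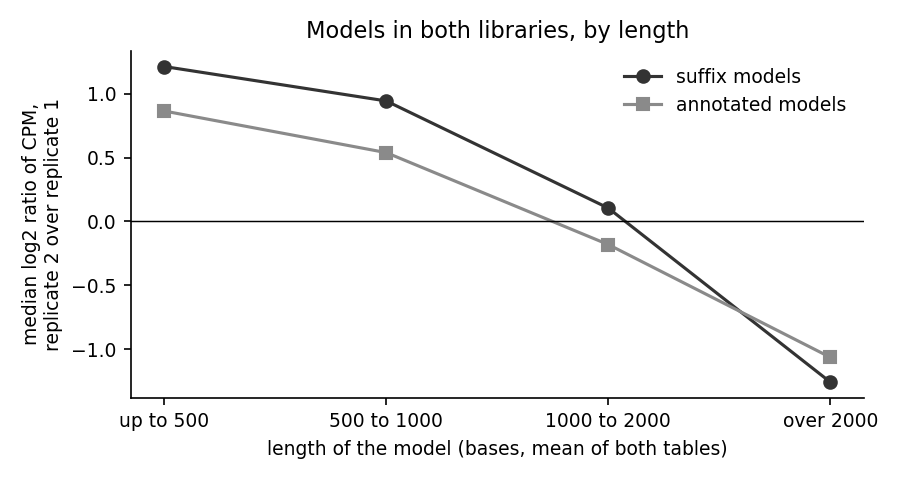
Points give the median log2 ratio of CPM, replicate 2 over replicate 1, for models in both libraries with at least 10 reads in sum, by model length, with suffix models as dark circles and annotated models as grey squares. Both fall with length, from 1.21 and 0.86 up to 500 bases to -1.25 and -1.06 over 2000 bases.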

How the data were processed

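Long-read RNA sequencing of 2 gastrocnemius libraries was used. Per the file headers, the authors worked on mm10 with GENCODE M21, and the deposited annotation names TALON as the source of unannotated models. Neither the aligner nor the TALON version is named there. As deposited by the authors, the tables hold raw read counts per transcript model, listing models with at least 1 read, with classes, lengths and exon numbers. The paired annotation gives exon positions.

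Models were matched between libraries by gene, strand and junction chain. Parents were annotated transcripts of the gene ending with the model's junctions, and losses are against the parent with the fewest exons. CPM used reads in annotated genes, and log2 ratios added 0.5 reads. With 1 group of 2 libraries no test was run. Shares carry Wilson intervals. Scripts ran in Python 3.11.15 with scipy 1.17.1. TMM and size factors came from edgeR 4.0.16 and DESeq2 1.42.0 in R 4.3.3. The matching of parents and the calls on shares were tested on simulated data. Start sequences came from GENCODE M21 transcripts and the Pfkm window from RefSeq. Described were the 10 most-read matched models, 10 genes with most suffix reads, 10 with the highest mean share, 5 models with most exons lost, 5 genes with the largest difference each way, and members of 11 gene lists; the starts off annotated boundaries were picked out after their values were seen. The members and lists were chosen with earlier results of these data known. Some items picked by this rule are withheld and are not reported here.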

Additional observations from a re-analysis of the deposited data

How the results depend on the processing

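The mean suffix share of gene reads was 8.91%. Alternatives that kept both libraries gave from 7.95% without Myh4, added after seeing the data, to 10.3% over models with more than 1 exon. Leaving out 1 library returns the value of the other, 7.21% in replicate 1 and 10.6% in replicate 2, and so is no check of stability. No paired analysis was possible because the 2 libraries form 1 group. With at least 2 reads in each library, 52.6% of suffix models were in both, against 42.2%. Starts lay within 10 bases in 84.6% and within 100 bases in 90.3% of matched chains, against 87.5% within 50, and within 50 bases in 56.1% of starts on no annotated boundary, an alternative added after seeing the data. The share near an annotated start was 22.6% at 10 bases and 22.9% at 100, against 22.8%. Exons lost had a median of 6 against the longest parent, against 4.5. Genes with at least 50% of reads in suffix models numbered 33 at a minimum of 50 reads, against 19, and from 25 without replicate 2 to 46 without replicate 1. Genes whose share differed between the libraries numbered 26, and 52 at 50 reads, 16 at 200 reads and 5 at 30 percentage points. Suffix models at least 2-fold apart in either direction made up 46.4%, and 49.6% with TMM, 51.9% with DESeq2 size factors and 33.1% at 2 reads in sum. The length difference was 3.495 percentage points with the longest annotated transcript whether or not it had reads, against 3.18. The single libraries had 3.38 in replicate 1 and 2.99 in replicate 2. Single-read models limit the depth: 66.0% and 62.6% of suffix models rest on 1 read.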
